A study of Mus musculus with 9 samples.

Results

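The B cell receptor signals through 2 subunits and is tuned by coreceptors and inhibitory receptors, and 9 genes of this kind were followed in RNA precipitated with phosphorylated UPF1 (p-UPF1). They were taken by name, through the NCBI Gene number of each row of the count table. The 9 genes are Cd79a, Cd79b, Cr2, Cd81, Cd22, Fcgr2b, Cd72, Ms4a1 and Siglecg, out of 27179 genes in the table. Of these, 13129 had enough reads to be tested, and all 9 members were among them, with 103 to 30320 reads per library. RNA immunoprecipitation sequencing (RIP-seq) recovers RNA together with a protein and counts it by sequencing. Splenic B cells of wild-type mice, isolated as CD43-negative cells, were stimulated for 72 h before lysis. The labels list CD40L at 5 ug/mL, anti-IgM at 10 ug/mL and IL-4 at 20 ng/mL, whereas the methods name an antibody to CD40 at that dose. The anti-IgM antibody binds the B cell receptor itself. Part of the lysate served as input (3 libraries), and the rest was precipitated with normal rabbit IgG (3 libraries) or with an antibody to p-UPF1 (3 libraries). Genotype and stimulation were thus shared by all 9 libraries, and no unstimulated cells were in the comparison. The methods describe adult mice of both sexes. The methods call the points of the study's graphs independent biological replicates, but nothing in the labels says that the 3 libraries of a group came from separate mice or cultures, so P values may measure only the spread between these libraries, which may be technical.

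The B cell receptor is a membrane immunoglobulin held by a heterodimer of Cd79a (Ig-alpha) and Cd79b (Ig-beta), whose cytoplasmic tyrosine motifs recruit Lyn and Syk once antigen binds. Cr2 and Cd81 belong to a coreceptor that lowers the threshold for signalling when antigen carries complement, while Cd22, Siglecg, Fcgr2b and Cd72 recruit phosphatases that restrain it. UPF1 is an RNA helicase of nonsense-mediated mRNA decay (NMD), and it is phosphorylated on RNAs that are being committed to decay.

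The libraries held 17372510 to 24945286 counted reads each, with the fewest in IgG, and replicates correlated at 0.982 to 0.997 (Pearson's r of log2 CPM). Levels below are CPM values, reads of a gene as a share of its library on a common scale. They were adjusted by TMM factors, which aim to hold the typical gene constant between libraries, so that a level is relative to the other RNAs of its library. The median tested gene still lay at -0.03 (log2 scale) in p-UPF1 over IgG and over input, and at -0.10 in IgG over input. Scaling the libraries to equal mitochondrially encoded mRNA instead raised the median gene by 4.63 on the log2 scale in p-UPF1 over IgG, by 5.05 over input and by 0.41 in IgG over input. All 9 members then read as higher in p-UPF1, as did 99.3% of all genes over IgG and 99.4% over input. A scaling moves all genes of a library alike, so the members' order relative to the median could hardly change. Relative to that raised median, Cd79a (-2.06), Cd81 (-1.44) and Fcgr2b (-1.28) lay lowest over IgG and Cr2 (1.16) and Cd22 (1.08) highest. Every direction given here is one relative to the other RNAs of the library under TMM factors. The label of B cells held against marker genes. A list of 14 B cell genes summed to 5083 to 5099.6 CPM in input, but it includes the 9 members. Of B cell and leukocyte genes outside the members, Ptprc averaged 773 CPM there, Cd37 429 and Pax5 58.0. In contrast, 8 T cell genes summed to at most 6.12 CPM, 4 NK cell genes to at most 0.635 CPM and 4 granulocyte genes to at most 0.0531 CPM in any library. The NK cell gene Ncr1 and the granulocyte genes Ly6g and Elane were at 0 in all 9 libraries. Among macrophage genes, Adgre1 averaged 131 CPM over the input libraries, 89.3 over IgG and 57.8 over p-UPF1, while the other 7 genes, Csf1r, Lyz2 and C1qa among them, were at 0.309 CPM or less in every group mean. Macrophages also express Fcgr2b and follicular dendritic cells also express Cr2. Of the follicular dendritic cell genes, Cxcl13 was at 0 in every library and Madcam1 averaged 18.3 CPM over input, 11.5 over IgG and 3.70 over p-UPF1. Plasma cell genes summed to 767 to 793 CPM in the input libraries, with 839 to 934 for IgG and 1592 to 1648 for p-UPF1, nearly all of it Irf4 and Xbp1, which activated B cells also express. Of the other 3, Sdc1 and Jchain were at 9.32 CPM or less in every group mean, and Prdm1 averaged 16.4 CPM over input, 22.0 over IgG and 9.39 over p-UPF1. The part of other cells in the results was not tested.

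NMD is often set off by the position of a stop codon relative to exon junctions, so the stop codons of the members were read from the genome. In the RefSeq annotation of GRCm38 (mm10), no curated transcript of any of the 9 genes has an exon junction more than 50 bases after its stop codon. This arrangement is rare, being found in 0.286% of the 11896 protein-coding genes tested, and those 34 genes had a median log2 fold change of p-UPF1 over IgG of 1.16, against 0.01 for the remainder. GENCODE release M21, which annotates more isoforms, assigns a transcript to its NMD class for 2 of the 9 members, Cd22 (3 of 16 transcripts) and Cr2 (1 of 12), and for 29.0% of the protein-coding genes tested. The stop codons of both genes are shown with those of the Cd79 pair, because Cr2 and Cd22 had the largest rise over IgG, Cd79a was the lowest member and Cd79b is its partner. Each line gives 15 bases before the stop codon, the stop codon in capitals and 6 bases after it, read 5′ to 3′ on the coding strand.
Cd22, main stop: gtgaccctcaagcacTGAggtggg
Cd22, NMD-class transcript 1: cagagttgtggccttTAGgacacg
Cd22, NMD-class transcript 2: gaactcacggtgcacTGAaaccta
Cd22, NMD-class transcript 3: cactgtgagtttcctTGAagctga
Cr2, main stop and NMD-class transcript: tataacccagcaagcTGAtgacat
Cd79a: cagctggaaaagccaTGActgaca
Cd79b: catccaggccaggaaTGAgggtca

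Cd22 lies at chr7:30865404-30880342 on the minus strand, with its main stop codon at chr7:30866531-30866533 in the last of 16 exons. In the 3 NMD-class transcripts of Cd22 the reading frame ends earlier, at chr7:30877844-30877846 with 11 exon junctions still to come, at a codon that an intron splits between chr7:30872874 and chr7:30873135 with 1 junction to come, and at chr7:30873121-30873123 with 9 junctions to come. The last junction follows these stop codons by 2438, 138 and 1432 bases of mRNA. Cr2 lies at chr1:195136811-195176880 on the minus strand, and its NMD-class transcript uses the same stop codon as the RefSeq transcript, chr1:195141190-195141192, but has 2 exon junctions after it, the last 109 bases on, where the RefSeq transcript has 1. Cd79a lies at chr7:24897497-24901858 on the plus strand with its stop codon at chr7:24901542-24901544, and Cd79b at chr11:106311341-106314562 on the minus strand with its stop codon at chr11:106311807-106311809. Both Cd79 genes end in the last exon, and GENCODE lists no NMD-class transcript for either. The deposited counts add up all isoforms of a gene, so a level cannot be assigned to any 1 of these transcripts.

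Before any precipitation, the members differed widely in abundance. Compared per kilobase of exon, which sums every exon annotated in RefSeq, Cd79b was the most abundant in input at 999 ± 1.22 CPM per kb (SD, n = 3). Cd79a at 269 ± 5.07 and Cd81 at 265 ± 3.91 CPM per kb did not differ beyond their spread, and Ms4a1 followed at 244 ± 4.26. Cd72 stood at 75.2 ± 1.72 CPM per kb, Cd22 at 33.9 ± 0.635, Fcgr2b at 11.3 ± 0.0312, Siglecg at 9.61 ± 0.761 and Cr2 at 1.83 ± 0.0980, with no overlap between neighbours from Cd81 downwards. An input level averages the culture, so fewer cells carrying an RNA and less of it per cell cannot be told apart. In the p-UPF1 precipitate the order was different. Cd79b remained first at 471 ± 21.9 CPM per kb, but Ms4a1 at 147 ± 6.28 came next, and Cd81 at 68.3 ± 3.81 overlapped with Cd22 at 65.3 ± 0.859. Cd79a, level with Cd81 in input, stood at 32.7 ± 0.304 CPM per kb and was below Cd72 at 54.0 ± 2.94. Cr2 at 4.26 ± 0.369 had passed Fcgr2b at 3.08 ± 0.154, the lowest member there. In the IgG precipitate, Cd79b at 629 ± 16.9 CPM per kb was again first and Cr2 at 1.95 ± 0.360 last. The exon sum exceeds the RefSeq transcript length used below mainly for Siglecg (3866 against 2484 bases), Cd72 (2114 against 1503) and Cd22 (4689 against 4097). Their places in these orders, and the gaps to their neighbours, therefore depend on the length chosen.

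To ask which of these RNAs were recovered with p-UPF1, the p-UPF1 precipitate was first set against IgG, which measures RNA carried down without the specific antibody. Cr2, Cd22 and Ms4a1 were higher in p-UPF1. Cd79a, Cd81, Fcgr2b, Cd72 and Cd79b were lower, and Siglecg was not called in either direction. The threshold was an adjusted P of 0.05 in the two-sided quasi-likelihood test of edgeR, with Benjamini-Hochberg adjustment over all genes tested. So 3 of 9 members were higher, where 40.4% of all tested genes were, and 5 of 9 were lower, where 42.2% of all genes were. The members' median log2 fold change was -0.42, against -0.03 over all tested genes. Set against input, Cr2 and Cd22 were higher, Siglecg was not called and the other 6 members were lower. These are 2 of 9 higher beside 40.8% of all genes, and 6 of 9 lower beside 42.6% of all genes, with a median of -0.73 for the members and -0.03 over all genes. Both comparisons share the p-UPF1 libraries.

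The study's methods define a p-UPF1-bound RNA by 2 limits on the log2 fold change, 1 against IgG and 2 against input, both to be reached. Of the members, Cr2 and Cd22 passed the IgG limit, and 22.2% of all genes did so. None of the 9 passed both, where 6.25% of all genes (820) did. The count of 0 held with edgeR, DESeq2 and limma-voom, and also when P values were left unadjusted, since no member reached the limit over input (the highest was Cr2 at 1.22).

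**Figure D1:**
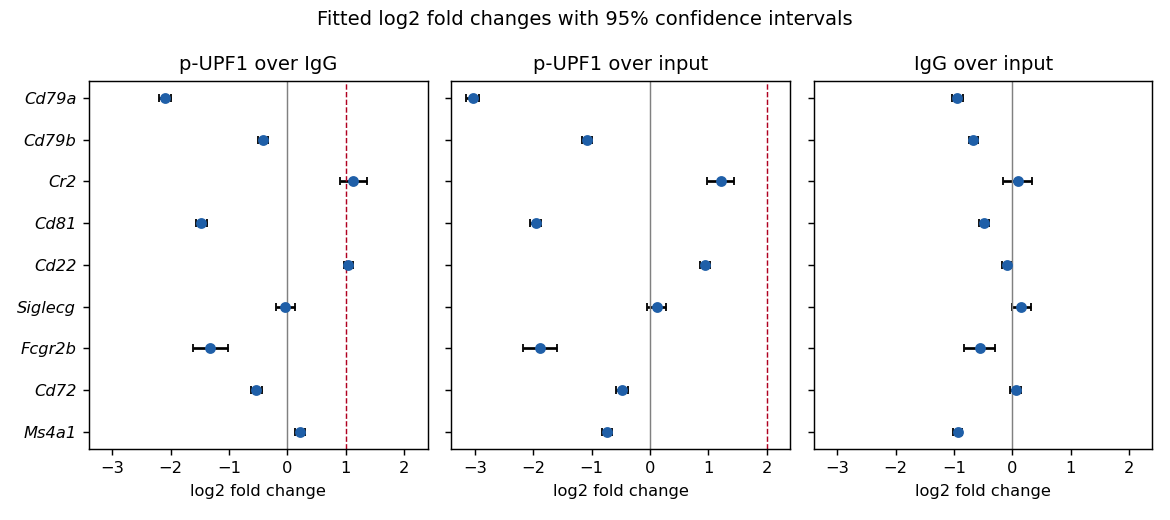
Fitted log2 fold change of each member (points) with its 95% confidence interval (bars) in the 3 comparisons, 3 libraries per group. Red dashed lines mark the limits for a p-UPF1-bound RNA (1 over IgG, 2 over input). Cr2 and Cd22 lie beyond the first limit and no member reaches the second.

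**Figure D2:**
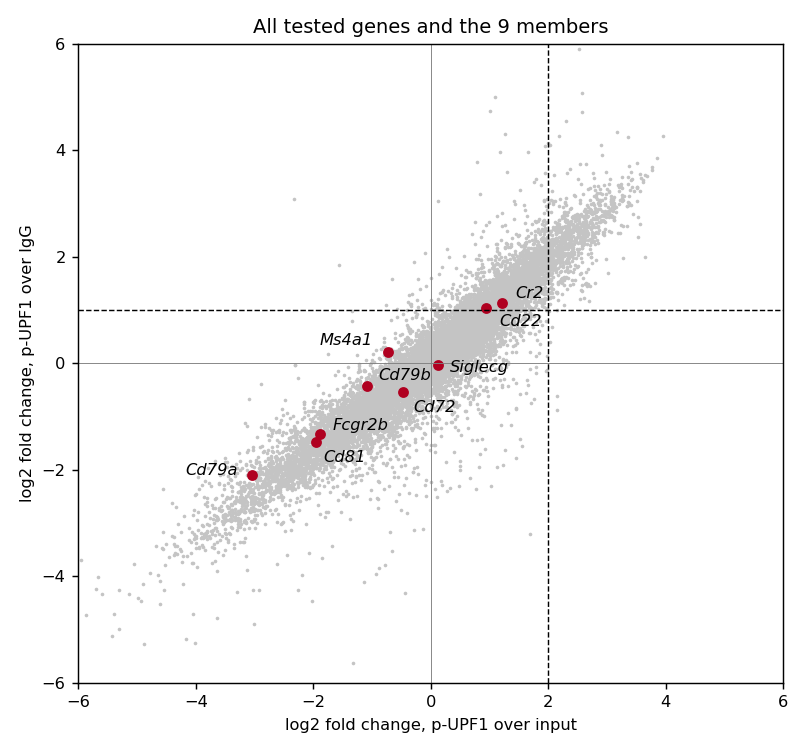
Log2 fold change of p-UPF1 over IgG (vertical) against p-UPF1 over input (horizontal) for the 13129 genes tested (grey) and the 9 members (red), with dashed lines at the limits for a p-UPF1-bound RNA and 9 genes outside the axes. The members spread along the cloud from Cd79a at lower left to Cr2 at upper right, and the quadrant beyond both limits holds none of them.

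The 2 signalling subunits of the receptor behaved unequally. Cd79a was read at 273, 264 and 272 CPM in the input libraries, at 143, 147 and 131 in IgG, and at 32.7, 32.5 and 33.1 in p-UPF1. The 3 groups do not overlap, and p-UPF1 is the lowest. Compared with IgG, Cd79a was 4.28-fold lower in p-UPF1 (log2 fold change -2.10 ± 0.05 SE, edgeR adjusted P = 8.0e-16) and 8.22-fold lower than in input (-3.04 ± 0.05, edgeR adjusted P = 8.6e-18), which placed it at the 5.68th and 2.86th percentile of all tested genes. It was the lowest member in both comparisons. Cd79b, with which it forms the heterodimer, was read at 1229.6, 1230.5 and 1227.5 CPM in input, at 795, 776 and 753 in IgG, and at 584, 604 and 551 in p-UPF1. The order of the groups is that of Cd79a, again with no overlap, but over a narrower range. Compared with IgG, Cd79b was 1.34-fold lower in p-UPF1 (log2 fold change -0.42 ± 0.04 SE, edgeR adjusted P = 4.2e-08) and 2.12-fold lower than in input (-1.08 ± 0.04, edgeR adjusted P = 1.2e-13).

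**Figure D3:**
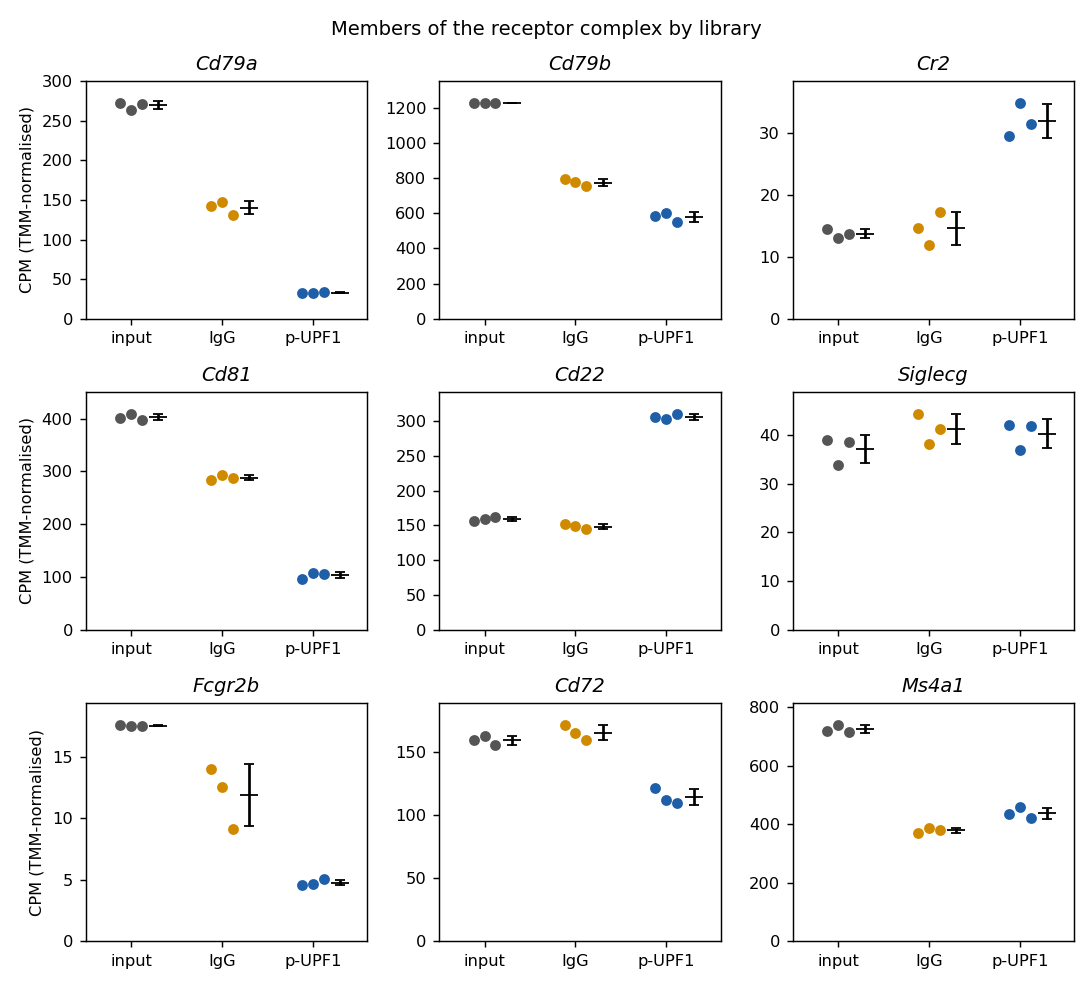
CPM of the 9 members in each library (points, 3 per group) with the mean and SD of the group (black bars), each panel on its own axis starting at 0. Cr2 and Cd22 are highest in p-UPF1, Cd79a, Cd79b, Cd81, Fcgr2b and Cd72 are lowest there, Ms4a1 lies between IgG and input, and the groups of Siglecg overlap.

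In the coreceptor, Cr2 and Cd81 moved in opposite directions. Cr2, the receptor for complement fragments on antigen (CD21 and CD35), was read at 14.4, 13.0 and 13.8 CPM in input, at 14.7, 11.9 and 17.3 in IgG, and at 29.5, 34.9 and 31.4 in p-UPF1. Input and IgG overlap and every p-UPF1 library lies above both. Cr2 had the largest rise of the members, 2.18-fold over IgG (log2 fold change 1.13 ± 0.11 SE, edgeR adjusted P = 5.6e-08) and 2.32-fold over input (1.22 ± 0.11, edgeR adjusted P = 1.9e-08), at the 80.1th and 81.9th percentile of all tested genes. Its log2 fold change over IgG fell just below the limit of 1 with library size alone, without TMM factors (0.97), and with upper-quartile factors (0.99). With 1 library left out it went as low as 1.01, whereas Cd22 stayed at 1.02 or above, so the order of Cr2 and Cd22 over IgG is not stable. Cd81, the tetraspanin of the coreceptor, was read at 400.5, 409 and 398 CPM in input, at 284, 293 and 287 in IgG, and at 97.0, 108 and 106 in p-UPF1. The groups are fully apart, with p-UPF1 the lowest. Cd81 was 2.78-fold lower than in IgG (log2 fold change -1.48 ± 0.04 SE, edgeR adjusted P = 1.1e-14) and 3.89-fold lower than in input (-1.96 ± 0.04, edgeR adjusted P = 2.8e-16). An exon of Cr2 overlaps Gm32313 on the opposite strand over 2526 bases, and an exon of Cd81 overlaps R74862 over 30 bases. The study's methods name unstranded mapping for its RNA-seq sets only. Whether the counting used strand here is not stated, so reads in an overlap may be included or left out. Gm32313 has no row of its own, and R74862 stood at 2.76 to 4.26 CPM.

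Of the inhibitory receptors, Cd22 was higher in p-UPF1, Siglecg was not called, and Fcgr2b and Cd72 were lower. Cd22, a sialic acid-binding lectin that recruits the phosphatase Ptpn6, was read at 156, 159 and 162 CPM in input, at 152, 149 and 144 in IgG, and at 306, 302 and 310.4 in p-UPF1. All p-UPF1 libraries are above all others. Cd22 was 2.06-fold higher in p-UPF1 than in IgG (log2 fold change 1.04 ± 0.04 SE, edgeR adjusted P = 1.7e-13) and 1.93-fold higher than in input (0.95 ± 0.04, edgeR adjusted P = 4.9e-13). The value over IgG lay below the limit of 1 with library size alone (0.88), with upper-quartile factors (0.91) and with an input library as TMM reference (0.96). Siglecg, the other lectin of this family, was read at 39.1, 33.8 and 38.6 CPM in input, at 44.4, 38.2 and 41.3 in IgG, and at 42.1, 36.9 and 41.8 in p-UPF1. Its groups overlap, and library B is the lowest in each of them. The log2 fold change over IgG was -0.03 (95% confidence interval -0.19 to 0.12, edgeR adjusted P = 0.67) and that over input 0.12 (-0.04 to 0.27, edgeR adjusted P = 0.16). It was nonetheless called lower over IgG with library size alone (-0.20), and higher over input with an IgG library as TMM reference (0.23), without the filter on low counts (0.25) and when only both groups compared were fitted (0.14).

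Fcgr2b, the inhibitory receptor for IgG, was read at 17.6, 17.5 and 17.5 CPM in input, at 14.0, 12.6 and 9.13 in IgG, and at 4.59, 4.65 and 5.03 in p-UPF1. The IgG libraries spread the most, yet the groups stay apart and p-UPF1 is the lowest. Fcgr2b was 2.50-fold lower than in IgG (log2 fold change -1.32 ± 0.14 SE, edgeR adjusted P = 1.9e-07) and 3.69-fold lower than in input (-1.88 ± 0.13, edgeR adjusted P = 9.9e-10). Of the 8 macrophage genes, Adgre1 was likewise lowest in p-UPF1, and the other 7 were at or near 0 in every group, with Itgam at 0.309 CPM in p-UPF1 against 0.0341 in IgG and Mertk at 0.161 against 0.0851. The part of Adgre1-expressing cells in the Fcgr2b values was not tested. Cd72, a C-type lectin that binds Sema4d, was read at 159, 163 and 155 CPM in input, at 171, 165 and 159 in IgG, and at 121, 112 and 109.7 in p-UPF1. Input and IgG overlap and p-UPF1 is below both. Cd72 was 1.45-fold lower than in IgG (log2 fold change -0.53 ± 0.05 SE, edgeR adjusted P = 2.0e-08) and 1.39-fold lower than in input (-0.48 ± 0.05, edgeR adjusted P = 7.2e-08). Its exons overlap those of Tesk1 on the opposite strand over 313 bases, and Tesk1 was higher in p-UPF1 (78.6 CPM, against 33.5 in IgG and 43.4 in input).

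Ms4a1, which encodes CD20, was the member whose direction depended on the background chosen. It was read at 721, 739.9 and 716 CPM in input, at 368, 385 and 381 in IgG, and at 434, 457 and 420.3 in p-UPF1. The p-UPF1 libraries lie above IgG and below input, with no overlap. Ms4a1 was 1.16-fold higher than in IgG (log2 fold change 0.21 ± 0.04 SE, edgeR adjusted P = 1.5e-04) and 1.66-fold lower than in input (-0.73 ± 0.04, edgeR adjusted P = 2.6e-11). The small excess over IgG was no longer called with library size alone (0.05, edgeR adjusted P = 0.25) or with upper-quartile factors (0.07, edgeR adjusted P = 0.091).

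The IgG precipitate itself differed from input. Cd79a and Ms4a1 were 1.92-fold lower in IgG than in input, and Cd79b (1.59-fold), Fcgr2b (1.48-fold) and Cd81 (1.40-fold) were lower too. Cr2 (log2 fold change 0.09), Cd72 (0.05) and Siglecg (0.15) were not called. Cd22 was called lower by -0.10 (edgeR adjusted P = 0.044), but its direction turned under 5 alternatives (0.01 to 0.31), and it was no longer called without p-UPF1 library A, IgG library C, input library B or input library C (edgeR adjusted P = 0.053 to 0.11). The call was also lost with upper-quartile factors, with DESeq2, with its size factors in edgeR, without the filter on low counts and with a minimum of 1 CPM. In all, 6 of 9 members were lower in IgG than in input, where 34.7% of all genes were, and 0 of 9 were higher, where 18.2% of all genes were. At an unadjusted P under 0.05, 0 members were higher with edgeR (20.2% of all genes), 0 with limma-voom (19.6%) and 1 with DESeq2 (21.2%). The median was -0.48 for the members and -0.10 over all tested genes. Cd22 lay at the 50.3rd percentile of all tested genes, so its call as lower is not one relative to the median gene. With library size alone 5 of 9 members were lower and 2 higher, where 24.2% of all genes were lower and 26.8% higher. Ms4a1 was higher in p-UPF1 than in IgG while lower than in input.

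Genes whose products act as a pair were then compared within each library, as a ratio of counts that no scaling factor can move. The ratio of Cd79b to Cd79a was 4.50, 4.67 and 4.52 in the input libraries, 5.56, 5.28 and 5.75 in IgG, and 17.9, 18.6 and 16.6 in p-UPF1. The RNAs of the heterodimer thus lay 3.20-fold further apart in p-UPF1 than in IgG and 3.87-fold further apart than in input. The ratio of Cr2 to Cd81 was 0.0361, 0.0317 and 0.0346 in input, 0.0517, 0.0406 and 0.0602 in IgG, and 0.304, 0.325 and 0.295 in p-UPF1, a difference of 6.14-fold from IgG and 9.04-fold from input. The ratio of Siglecg to Cd22 was 0.250, 0.213 and 0.238 in input, 0.292, 0.256 and 0.287 in IgG, and 0.138, 0.122 and 0.135 in p-UPF1, which is 2.12-fold below IgG and 1.78-fold below input. In each of the 3 pairs, p-UPF1 did not overlap with either background, which was also so for 74.1% of all pairs of tested genes with reads in every library (79.3% against IgG and 86.7% against input), so the lack of overlap is not particular to these pairs. With 3 libraries against 3, an exact two-sided permutation test cannot give a P below 0.1, and all 9 comparisons gave 0.1, also after Benjamini-Hochberg adjustment over the 9.

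**Figure D4:**
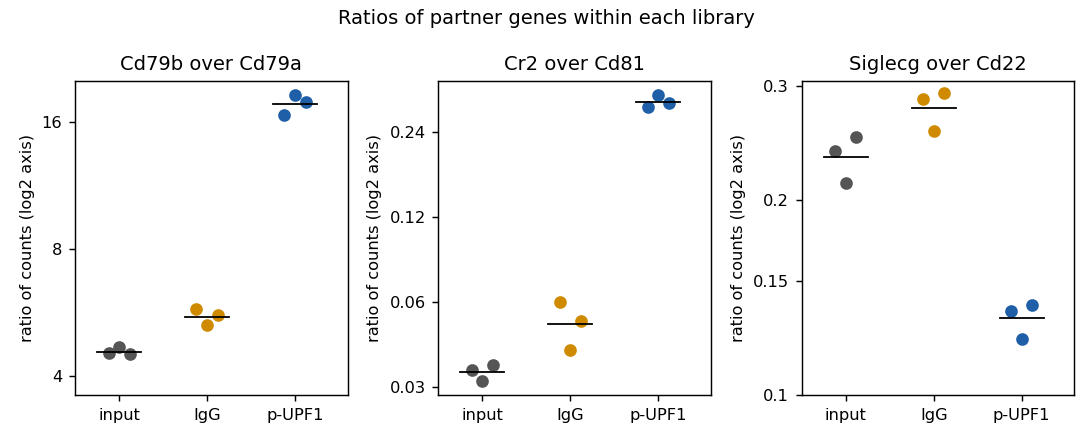
Ratio of counts of 2 partner genes in each library (points, log2 axis) with the geometric mean of the 3 libraries of a group (line). The ratio of Cd79b to Cd79a rises from 4.50 to 4.67 in input to 16.6 to 18.6 in p-UPF1, that of Cr2 to Cd81 is also highest in p-UPF1, and that of Siglecg to Cd22 is lowest there.

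The members with the largest rise over IgG also had the longest mRNAs. The RefSeq transcripts of Cr2 and Cd22 measure 7334 and 4097 bases, followed by Ms4a1 (2979) and Siglecg (2484), whereas the 5 members that were lower in p-UPF1 than in IgG measure 1002 (Cd79a), 1231 (Cd79b), 1503 (Cd72), 1518 (Cd81) and 1547 bases (Fcgr2b). Across the 9 members, Spearman's rho between mRNA length and the log2 fold change over IgG was 0.85, a description over 9 genes that share the same libraries. For coding length the rho over IgG was 0.77 and for exon number 0.68. Over input, coding length (0.92) and exon number (0.86) followed the members' order more closely than mRNA length did (0.78). Length went with the fold change over the transcriptome as well, with a rho of 0.29 over 11896 protein-coding genes. Over the same genes, coding length (0.13) and exon number (0.08) followed the fold change over IgG less closely than mRNA length. Over input the values were 0.35 for mRNA length, 0.20 for coding length and 0.14 for exon number, unlike the order among the members. When these genes were divided into 5 bins by mRNA length, the median log2 fold change over IgG was -1.06 in the shortest bin (320 to 1702 bases), -0.02 in the next, 0.29 in the middle bin, 0.36 in the bin of 3496 to 4943 bases and 0.16 in the longest. The mRNAs of all 5 lower members fall in the shortest bin. Set against the median of their own bin, Cd79a (-1.04), Cd81 (-0.42) and Fcgr2b (-0.26) were still lower on the log2 scale, while Cd79b lay 0.64 and Cd72 0.53 above it. Cr2 exceeded its bin by 0.97 and Cd22 by 0.69, and Ms4a1 (-0.08) and Siglecg (-0.01) lay near the medians of theirs. Over input the same differences were -1.71 for Cd79a, -0.97 for Ms4a1, -0.63 for Cd81, -0.55 for Fcgr2b, 0.25 for Cd79b, 0.26 for Siglecg, 0.54 for Cd22, 0.85 for Cd72 and 0.95 for Cr2, so Ms4a1 lay well below its bin there. Length also went with the fold change of IgG over input, with a rho of 0.34 over the same genes, and the medians rose from -0.31 in the shortest bin to 0.09 in the longest. The part of length in the members' values was not tested.

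**Figure D5:**
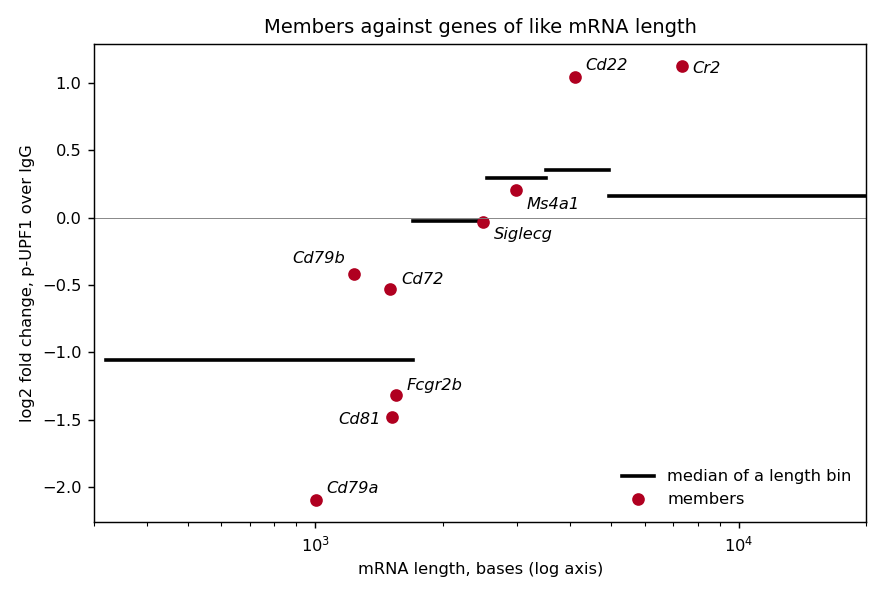
Log2 fold change of p-UPF1 over IgG against mRNA length (log axis) for the 9 members (red), with the median of all tested protein-coding genes in 5 bins of length (black lines, each spanning its bin, the longest cut at the axis). Both rise from the shortest bin, and Cr2 and Cd22 lie above the medians of their bins.

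The length of the 3' UTR, which UPF1 is known to sense, followed the order of the members less closely. It was 2998 bases in Cr2 and 1127 in Cd22, but also 1986 in Ms4a1, and from 272 (Siglecg) to 556 bases (Cd81) in the rest, and rho with the log2 fold change over IgG was 0.62 over the 9 members and 0.36 over the 11896 genes. Over input these were 0.38 and 0.37. The bin of genes with the shortest 3' UTRs (at most 324 bases) had its median against IgG at -0.86 (log2 scale). Of the members in it, Siglecg lay 0.83 above the median and Cd72 0.33 above it, whereas Cd79a lay below it (-1.23). Against the medians of their own bins, Cd81 (-1.23), Fcgr2b (-1.08), Ms4a1 (-0.32) and Cd79b (-0.18) were lower over IgG, and Cr2 (0.79) and Cd22 (0.74) were higher. Every member lay on the same side of its bin over input, at -2.04 for Cd79a, -1.62 for Cd81, -1.55 for Fcgr2b, -1.23 for Ms4a1, -0.75 for Cd79b, 0.52 for Cd72, 0.68 for Cd22, 0.79 for Cr2 and 1.11 for Siglecg. An ATG upstream of the start codon, whose short reading frame can also attract UPF1, is present in Cd22 (2), Siglecg (3), Cd79b (1) and Cd72 (1), in 4 of 9 members as in 48.5% of genes, and is absent from Cr2. The pentamer ATTTA, searched on the mRNA strand only, occurs in the 3' UTR of Cr2 (5), Ms4a1 (2) and Cd81 (1), and in that of 66.6% of genes. A match is a description of the letters and not of a site in use. An NMD-class transcript in GENCODE went with a median log2 fold change over IgG of 0.17 over 3455 genes, against -0.06 in genes without one, and both members that have one, Cd22 and Cr2, lay above the former.

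Genes of the same pathway were counted from lists, to be read beside the 40.4% of all genes that were higher over IgG, the 42.2% that were lower and the 6.25% that met both limits. Of 6 immunoglobulin chain genes, which supply the antigen-binding part of the receptor, 4 were lower over IgG and 1 was higher, with a median log2 fold change of -1.02. Ighd, the heavy chain of IgD, was the highest (0.39, edgeR adjusted P = 0.0032) and Iglc2, a lambda light chain, the lowest (-2.17, edgeR adjusted P = 3.7e-14). Near-identical lambda genes can share reads, so the split between them is uncertain. Ms4a1 and Cd81 have relatives in the MS4A and tetraspanin families, of which 15 of 17 were tested, with 5 higher and 10 lower (median -1.04). Tspan33 was the highest (2.56) and met both limits. Ms4a4a was the lowest at -5.63, with 80.8 CPM in IgG against 4.06 in input and 1.63 in p-UPF1, and thus far higher in IgG than in either other group.

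Downstream of the receptor, both lists had medians above 0. Of 18 proximal kinases and adaptors, 11 were higher over IgG and 6 were lower, with a median log2 fold change of 0.36. Dapp1, an adaptor that binds phosphoinositides, was the highest at 7.98-fold over IgG, and it met both limits for a p-UPF1-bound RNA, as did Syk (log2 fold change 2.63), Vav2 (2.24) and Pik3ap1 (2.16). Syk, the kinase that docks on the phosphorylated Cd79 tails, averaged 56.7 ± 2.17 CPM over input, 59.7 ± 7.42 over IgG and 370.1 ± 11.3 over p-UPF1 (SD, n = 3). Plcg2 was the lowest of this list (-0.95). Of 12 phosphatases and adaptors that act below the inhibitory members, 7 were higher and 3 lower (median 0.40). Ptpn11, the phosphatase SHP-2, met both limits (2.75), as did Sla2 (2.23) at no more than 1.48 CPM in any group mean, while Ptpn6, the phosphatase SHP-1 that Cd22 and Cd72 recruit, was the lowest (-1.15).

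Among 12 other inhibitory receptors of B cells, 9 were tested, with 4 higher, none lower and a median of 0.21. Pdcd1, which encodes PD-1, was the highest (3.37) and met both limits, and Pirb was the lowest (-0.31, edgeR adjusted P = 0.18). Of 5 genes that encode ligands of members or make those ligands, 2 were higher and 3 lower (median -0.31). St6gal1, the sialyltransferase that makes the ligand of Cd22, met both limits (2.67) and averaged 436 ± 7.37 CPM over input, 359 ± 17.3 over IgG and 2288 ± 46.1 over p-UPF1 (SD, n = 3), whereas C3, the source of the complement fragments that Cr2 binds, was the lowest (-0.99). For comparison, 13 of 15 surface molecules linked to activation were higher over IgG and 2 lower, with a median of 1.21. Cd83 (3.86), Slamf1 (3.06), Il4ra (2.72), Cd80 (2.58) and Icosl (2.28) met both limits, and Cd69 was the lowest (-1.10). No test was made between lists.

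The genes whose 9 library values most resembled those of the extreme members were found by Euclidean distance between log2 CPM values centred on each gene's mean, among genes of at least 10 CPM. Nearest to Cr2 were Fnip2 (distance 0.304), Cyp4f16 (0.308) and Usp28 (0.309), with log2 fold changes over IgG of 1.10, 1.04 and 1.12. Nearest to Cd79a were Dad1 (0.243), Ube2a (0.253) and Nop10 (0.272), with log2 fold changes over IgG of -2.15, -2.15 and -2.20.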

How the data were processed

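The authors deposited raw read counts per gene, 1 column per library, keyed by NCBI Gene number. The submitters' processing notes name cutadapt, HISAT2, featureCounts and mm10, and their versions and the strand setting for RIP-seq reads are not given in the sources used here. No molecular identifiers were used, so counting error understates the true error. Columns carry letters and the labels numbers, so a column was matched to a group and not to a numbered replicate, and 0 columns of other samples were present. Of 27179 identifiers, 25275 matched a RefSeq symbol. Sequences, positions and lengths are from RefSeq GRCm38 (the longest coding transcript) and transcript classes from GENCODE M21.

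In R 4.3.3, genes passing filterByExpr (minimum count 10, minimum total 15; 13129 genes with 99.9% of counts) were fitted over all 9 libraries with 3 groups, TMM factors, 6 residual degrees of freedom and no covariate with edgeR 4.0.16 (glmQLFit, glmQLFTest, two-sided, Benjamini-Hochberg). Fold changes carry a prior count of 0.125. DESeq2 1.42.0, limma-voom 3.58.1, other scalings, filters and left-out libraries were alternatives, and the column letter as a block was added after seeing the data. The edgeR step was tested on simulated data. Replicates differed by more than sampling noise (chi-square per degree of freedom 1.38 to 9.94), and none was merged.

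The members, lists, marker genes and tests were chosen with earlier results of these data known. Named genes are the 9 members, the highest and lowest gene of each list over IgG, list genes meeting both limits, and the 3 genes nearest to the highest and lowest member. A gene of the lists, and the list that turns on it, are not reported here. Adgre1, Madcam1, Tesk1 and the other genes given beside a result as markers or overlapping genes were named after their values were seen. A planned search for tyrosine motifs in the proteins was not run, as no protein sequences were used here.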

Additional observations from a re-analysis of the deposited data

How the results depend on the processing

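The ratios of partners kept their direction under all of their alternatives, but no group overlapped another, so leaving out 1 library could not reverse a direction. The count of members meeting both limits stayed at 0 under every alternative except mitochondrial scaling. Scaling to equal mitochondrially encoded mRNA raised the median gene by 4.63 over IgG, 5.05 over input and 0.41 in IgG over input (log2). Under it 9 members were higher and 0 lower in p-UPF1 over IgG and over input, 9 met both limits, as did 97.0% of all genes, and in IgG over input 4 were higher and 3 lower (54.0% and 6.22% of all genes). Its log2 values over IgG and over input became 4.10 and 4.57 for Cd72, 2.54 and 2.01 for Cd79a, 4.22 and 3.96 for Cd79b, 3.16 and 3.09 for Cd81, and 3.32 and 3.16 for Fcgr2b, and Ms4a1 became 4.32 over input. Cd22 in IgG over input turned from -0.10 to 0.017 with library size alone, 0.31 with mitochondrial scaling, 0.0054 with an input library and 0.0077 with an IgG library as TMM reference, and 0.0078 with only both groups fitted. The members higher in IgG over input, 0 in the reported fit, became 2 (Cd72 and Siglecg) with library size alone, 2 with upper-quartile factors, 2 with an input library as TMM reference, 2 with an IgG library as TMM reference, 2 without the low-count filter and 2 with only both groups fitted, where 16.3% to 26.8% of all genes were higher. Leaving out 1 library at a time gave 0 to 1, the 1 being Siglecg without IgG library B (0.20). Under each of the alternatives with 2 members higher, 5 members were lower, where 17.3% to 28.1% of all genes were lower. With library size alone more of all genes were higher (26.8%) than lower (24.2%), unlike in the reported fit. The cause was not tested. Library size alone moved the median gene over IgG to -0.19, upper-quartile factors to -0.17 and an input TMM reference to -0.12. The column letters recur in all groups but are not in the labels. Deviations from the group means correlated at -0.0051 to 0.054 over genes between libraries of the same letter and at -0.056 to 0.022 between the others. Pairs of letter A and of letter B (0.032 to 0.054) all lay above every other pair, so a shared lysate remains possible. As all values were small, the letters were not taken as pairs. A replicate block on the letter, chosen after seeing the data, changed 1 call, Siglecg in IgG over input (0.15, edgeR adjusted P = 0.028), so 1 member was higher there, as were 18.7% of all genes. The exact permutation test of 3 libraries against 3 cannot go below 0.1, so its P values for the ratios say nothing about stability. Fcgr2b, with 103 to 434 reads per library, and Cr2, with 233 to 774, had the widest standard errors of the members.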
